A study of Drosophila melanogaster with 36 samples.

Results

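Thoraxes of 2-day-old flies expressing PABPN1-17ala in their muscles were compared with thoraxes of control flies of the same age. The 6 arrays of PABPN1-17ala thoraxes and the 6 arrays of control thoraxes were taken by their titles, and made up 12 of the 36 arrays of the study, which also sampled adults at days 6 and 11. PABPN1-17ala flies carried UAS-PABPN1-17ala and the Mhc-Gal4 driver, each over a wild-type chromosome, and control flies carried the Mhc-Gal4 driver alone. The driver was therefore shared by both genotypes and its promoter, that of the muscle myosin heavy chain, is active in muscle, whereas RNA came from the whole thorax. For each genotype and age, 3 RNA extracts of 50 thoraxes each were hybridised on 2-colour arrays against a pool of the control RNA of day 2. Replicates 1 to 3 carried the thorax RNA in Cy5 and replicates 4 to 6 carried it in Cy3. Each value below was read as a log2 ratio of thorax over that pool, although neither the log base nor the direction is stated in the sources used here.

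PABPN1 is a nuclear RNA-binding protein that helps messenger RNAs to gain a full-length poly(A) tail. An expansion of its alanine tract causes oculopharyngeal muscular dystrophy (OPMD), in which the protein forms nuclear aggregates in muscle fibres. The fly thorax is largely filled by flight muscle, in which sarcomeres and mitochondria are packed side by side, and expression of the expanded protein there leads to muscle degeneration. In a whole thorax, fewer cells of a type and less RNA per cell cannot be told apart.

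Genes were both up-regulated and down-regulated by PABPN1-17ala at day 2, and how many of each depended on the arrays used. With the 2 dyes analysed separately in limma and a gene called only when both dyes passed (Benjamini-Hochberg adjusted p of the weaker dye below 0.05, same sign), 92 genes rose, 0.667% of the 13791 tested, and 39 fell, 0.283%. At these shares a short gene list would often hold no called gene. All 92 had their 6 PABPN1-17ala arrays above every control array of the same dye, and all 39 had them below. Over all genes this held for 1.91% and 2.00%. The calls were made on these same values, so the separation is a description and adds no support to them. The same applies below where groups are said not to overlap. Leaving out 1 array gave 54 (without PABPN1-17ala replicate 3) to 121 (without PABPN1-17ala replicate 1) up-regulated and 17 (without PABPN1-17ala replicate 5) to 50 down-regulated genes. A model of the day 2 arrays alone gave 23 and 22, and at an unadjusted p below 0.05 there were 292 and 251. Up-regulated genes were the more numerous in each of these counts, though by little with the day 2 arrays alone. Of the up-regulated genes, 46 rose at least 2-fold and 12 at least 4-fold, with a median of 1.99-fold and a range from 1.31-fold (AspRS) to 10.8-fold (Gadd45), whereas 10 genes fell at least 2-fold. Of the 39 down-regulated genes, 15 belonged to lists of nuclear respiratory chain, mitochondrial ribosome or other mitochondrial genes, and 24 lay outside them. Of 85 respiratory chain genes 8 fell, of 68 mitochondrial ribosomal proteins 2, and of 95 genes of a mitochondrial list that the study drew from these samples 13, with none rising. Among them were Alas (CG3017), the first enzyme of haem synthesis, at 0.405 of control (adjusted p = 2.13e-05), and CG8745 at 0.451 (adjusted p = 0.00011).

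**Figure D1:**
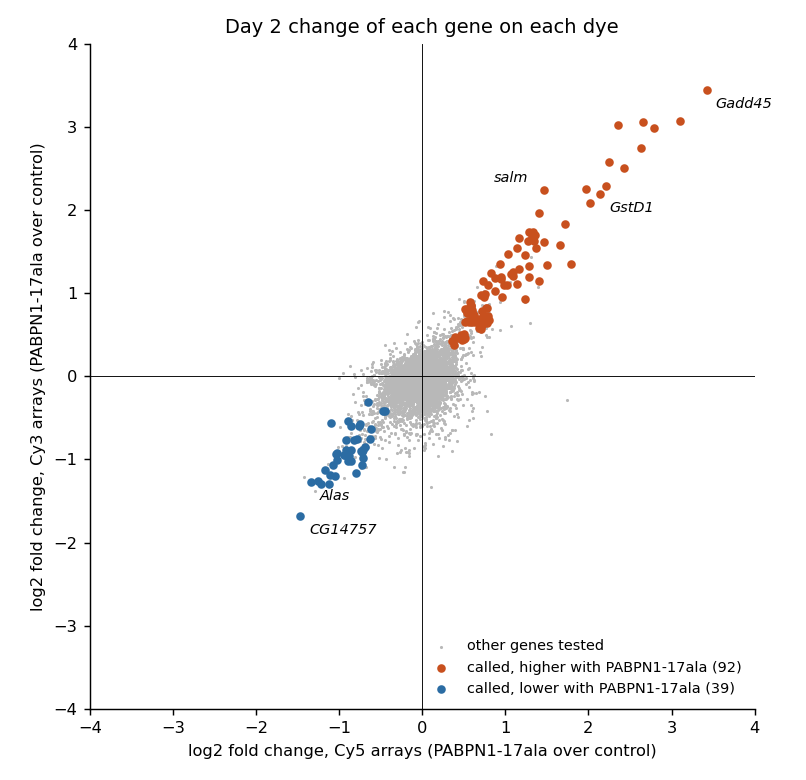
Log2 fold change (PABPN1-17ala over control, day 2) of each of the 13791 genes on the Cy5 arrays (horizontal axis) and on the Cy3 arrays (vertical axis). Each point is a gene; the 92 up-regulated genes lie in the upper right corner, the 39 down-regulated genes in the lower left one, and Gadd45 is farthest from the centre.

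The labels and the arrays were checked first. The source label of PABPN1-17ala replicate 1 names the control genotype, whereas its title, description and strain name PABPN1-17ala; the array was kept as titled, and without it 121 genes rose and 50 fell. Arrays of the same dye correlated over genes at 0.47 to 0.80 among PABPN1-17ala arrays, at 0.31 to 0.54 among control arrays and at 0.22 to 0.53 between genotypes, while arrays of opposite dye and the same genotype correlated at -0.50 to 0.36. Fold changes of the 2 dyes correlated at 0.57 over genes, a description in which all genes of a dye share the same arrays. Which ratio the deposited sign stands for was not stated and was read from GstD1, since the study shows a GstD1 reporter raised in these muscles; the other reading would turn every sign. Pabp2 (CG2163), the fly orthologue of PABPN1, stood at a log2 fold change of 0.17 (adjusted p = 1). Whether its probe also detects the transgene is not given in the sources used here.

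Gadd45 (CG11086), a stress-inducible protein that acts in JNK signalling, was the gene with the highest rise. Its log2 ratios were 2.72, 3.99 and 3.88 on the Cy5 arrays and 3.01, 4.13 and 3.36 on the Cy3 arrays of PABPN1-17ala thoraxes, against 0.12, 0.10 and 0.10 on Cy5 and 0.07, 0.01 and 0.07 on Cy3 arrays of control thoraxes. The groups lay more than 2 log2 units apart on either dye, and the PABPN1-17ala arrays spread far more widely than the control ones. The mean change was 3.44 on the log2 scale, or 10.8-fold (SE 0.24 on Cy5 and 0.25 on Cy3, limma adjusted p = 2.66e-06).

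Several other genes among the most raised encode proteins with no established function or with a role outside muscle. CG15617 had log2 ratios of 3.16, 3.22 and 3.32 (Cy5) and 3.15, 3.13 and 2.99 (Cy3) in PABPN1-17ala thoraxes, against 0.27, 0.06 and 0.06 (Cy5) and 0.41, -0.23 and -0.12 (Cy3) in control thoraxes. These 6 PABPN1-17ala arrays agreed closely with each other, and the rise was 8.50-fold (adjusted p = 6.47e-06). CG12290 and Pino (CG4710) rose by 2.89 and 2.86 on the log2 scale (adjusted p = 6.47e-06 each). The fan gene (CG7919), which encodes a VAP-family protein of the male germ line, rose by 6.45-fold, and pbl (CG8114), which acts in cytokinesis, by 5.33-fold (adjusted p = 2.36e-05 and 2.60e-05). CG12105 rose by 4.75-fold with 6 values between 2.24 and 2.46 in PABPN1-17ala thoraxes, against -0.05 to 0.24 in control thoraxes (adjusted p = 2.62e-06). Of 24 testis genes tested, fan was the only one called, beside 0.667% risen and 0.283% fallen over all genes. The next highest, can, had a log2 fold change of 0.28, so the rise of fan was not accompanied by calls of other testis genes.

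**Figure D2:**
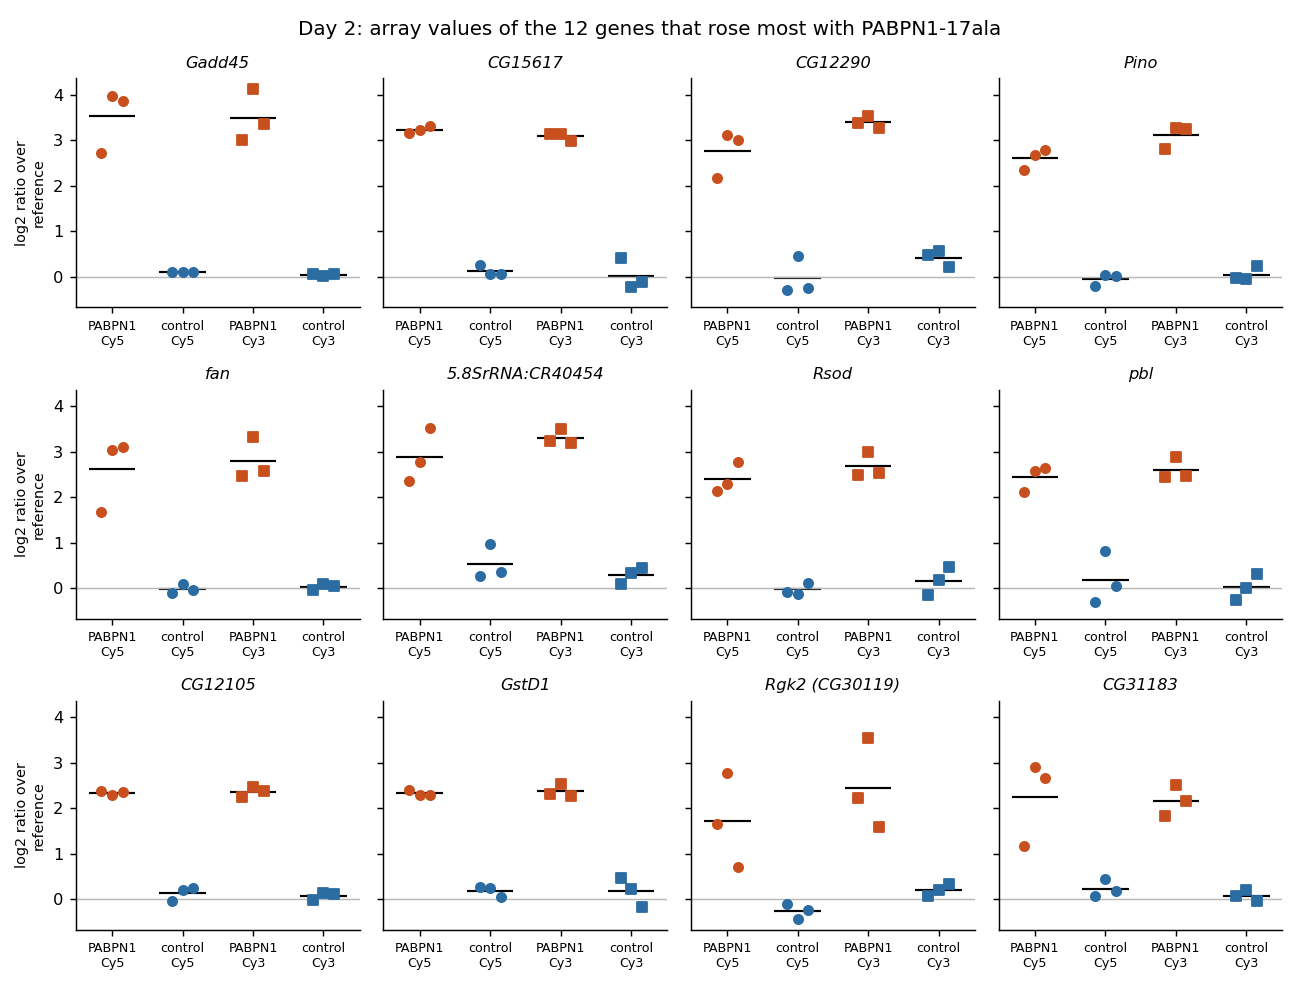
Log2 ratio over the reference pool on each day 2 array, for the 12 genes with the highest rise. Circles are Cy5 arrays, squares Cy3 arrays, orange PABPN1-17ala and blue control, and a black line marks the mean of 3 arrays. In each panel the orange points lie above the blue points of the same dye, which was required when these genes were chosen.

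Other genes among the 25 with the highest rise covered transport, mitochondria and signalling. The mitochondrial adenine nucleotide translocase Ant2 (CG1683), which exchanges ATP for ADP across the inner membrane, had log2 ratios of 1.33, 1.79 and 1.65 (Cy5) and 1.56, 1.98 and 1.59 (Cy3) in PABPN1-17ala thoraxes, against 0.01, -0.19 and -0.03 (Cy5) and -0.05, 0.10 and 0.34 (Cy3) in control thoraxes. Its rise was 3.07-fold (adjusted p = 2.36e-05), whereas sesB, the other translocase gene of the same locus, stood at a log2 fold change of -0.56 (-0.16 on Cy5 and -0.95 on Cy3, adjusted p = 1). The bic gene (CG3644), which encodes the beta subunit of the nascent polypeptide-associated complex, rose by 3.23-fold (adjusted p = 7.35e-05), the sodium channel family member ppk17 (CG13278) by 2.85-fold (adjusted p = 0.0077, and 0.0501 without PABPN1-17ala replicate 3) and the ABC transporter CG7627 by 2.75-fold (adjusted p = 0.0025). CG31183 rose by 4.16-fold, CG32295 by 2.98-fold, CG12868 by 2.90-fold and CG31848 by 2.73-fold (adjusted p between 0.00061 and 0.0056).

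A ribosomal RNA, a histone pseudogene and a small nuclear RNA were also called. CR40454, a gene for the smaller RNA of the large ribosomal subunit that is cut from the same precursor as the main ribosomal RNAs, had log2 ratios of 2.35, 2.78 and 3.52 (Cy5) and 3.24, 3.495 and 3.18 (Cy3) in PABPN1-17ala thoraxes, against 0.27, 0.97 and 0.34 (Cy5) and 0.08, 0.32 and 0.45 (Cy3) in control thoraxes. The groups did not overlap, and the 6.44-fold rise had an adjusted p of 0.039. The histone pseudogene His-Psi (CR31614) rose by 3.42-fold (adjusted p = 2.36e-05), and a U5 small nuclear RNA of the spliceosome, snRNA:U5:38ABa (CR32881), by 2.37-fold (adjusted p = 0.037). Of 11 small nuclear RNAs tested, 1 rose and 0 fell, beside 0.667% risen and 0.283% fallen over all genes, and 7 were above 0 on both dyes. Among those not called, 1 U6 RNA had a log2 fold change of 1.06, U5:34A of 0.97, U5:23D of 0.79, U1:82Eb of 0.67 and U5:38ABb of -0.06. Of 17 small nucleolar RNAs and 16 transfer RNAs none was called. Their values are uncertain because a probe may not tell near-identical copies apart. Total RNA was amplified with a kit that primes on poly(A), and how RNAs without a tail entered the labelled material was not tested. The call of CR40454 was lost in 8 of the 12 analyses that left out 1 array (without any of PABPN1-17ala replicates 2 to 6 or without control replicates 4 to 6, adjusted p up to 0.176), and the U5 call in 11 of 12, all but the one without PABPN1-17ala replicate 1 (up to 0.212).

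Stress and detoxification families had few called members, and GstD1 set the direction in which all values were read. GstD1 (CG10045), a glutathione transferase used as a reporter of oxidative stress, had log2 ratios of 2.39, 2.30 and 2.30 (Cy5) and 2.31, 2.53 and 2.27 (Cy3) in PABPN1-17ala thoraxes, against 0.28, 0.24 and 0.04 (Cy5) and 0.46, 0.23 and -0.17 (Cy3) in control thoraxes. The groups did not overlap and the mean log2 fold change was 2.17, a description, since the direction of all ratios was chosen so that GstD1 is higher in PABPN1-17ala thoraxes. GstD1 was the 1 called of 35 glutathione transferases tested, and the related GstD9, GstD5 and GstD2 had uncalled log2 fold changes of 0.42, 0.36 and 0.31. Rsod (CG31028), which resembles superoxide dismutase in sequence, rose by 5.53-fold (adjusted p = 6.47e-06). Among the 21 antioxidant enzymes tested none was called, beside 0.667% risen and 0.283% fallen over all genes. The mitochondrial superoxide dismutase Sod2 stood at a log2 fold change of -0.57 (adjusted p = 0.66), with all 6 PABPN1-17ala arrays below control. SelR (0.48, adjusted p = 0.78) and Gclc (0.20, adjusted p = 0.85) had all 6 above. Of 81 cytochromes P450, 2 rose, the neighbouring genes Cyp4p2 (CG1944, 2.06-fold, adjusted p = 0.00017) and Cyp4p1 (CG10842, 1.60-fold, adjusted p = 0.011, lost without PABPN1-17ala replicate 2 or 3, up to 0.065).

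Of 27 genes of JNK signalling and wound stress tested, 3 rose and none fell, beside 0.667% risen and 0.283% fallen over all genes. Besides Gadd45 these were Mmp1 (CG4859), a metalloproteinase that cuts the extracellular matrix, and Socs36E (CG15154), an inhibitor of cytokine signalling. Mmp1 stood at 0.69, 0.88 and 0.80 (Cy5) and 1.37, 1.496 and 1.34 (Cy3) in PABPN1-17ala thoraxes, against -0.42, -0.27 and -0.45 (Cy5) and 0.10, 0.28 and -0.04 (Cy3) in control thoraxes. Levels lay higher on the Cy3 arrays in both genotypes, and the log2 fold change was 1.17 on Cy5 and 1.29 on Cy3, a rise of 2.34-fold (adjusted p = 2.36e-05). Socs36E rose by 1.74-fold (adjusted p = 0.027) and was lost without PABPN1-17ala replicate 2 or 3 or without control replicate 1, 2 or 3 (up to 0.162). Log2 fold changes of the JNK feedback phosphatase puc and of the damage signal Ilp8 were 0.18 and 0.05, neither called.

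Genes for both kinds of subunit of calcineurin rose. CanA1 (CG1455), a catalytic subunit of the calcium-dependent phosphatase calcineurin, had log2 ratios of 1.72, 1.79 and 1.81 (Cy5) and 1.66, 2.05 and 1.88 (Cy3) in PABPN1-17ala thoraxes, against 0.32, 0.48 and 0.43 (Cy5) and -0.07, 0.22 and 0.32 (Cy3) in control thoraxes. The groups were clearly separated, with a rise of 2.89-fold (adjusted p = 6.47e-06). CanB2 (CG11217), a calcium-binding regulatory subunit, rose by 1.60-fold (adjusted p = 0.033, lost without PABPN1-17ala replicate 4, 5 or 6 or without control replicate 5 or 6, up to 0.188). They were the 2 called of 23 calcium-handling genes tested, beside 0.667% risen and 0.283% fallen over all genes. The other calcineurin genes CanB, Pp2B-14D and CanA-14F had uncalled log2 fold changes of -0.07, -0.34 and -0.01.

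In innate immunity, 2 regulators rose and no effector was called. The NF-kB factor dl (CG6667), which acts in the Toll pathway, had log2 ratios of 1.51, 1.81 and 1.57 (Cy5) and 1.56, 2.02 and 1.65 (Cy3) in PABPN1-17ala thoraxes, against 0.11, 0.28 and 0.12 (Cy5) and 0.02, 0.28 and 0.05 (Cy3) in control thoraxes. Its rise was 2.91-fold (adjusted p = 1.28e-05). The Imd pathway inhibitor pirk (CG15678) rose by 2.42-fold (adjusted p = 0.00023), with values from 0.78 to 1.79 in PABPN1-17ala thoraxes and from -0.19 to 0.05 in control thoraxes. Diap2 (CG8293), a ubiquitin ligase needed for Imd signalling, fell to 0.604 of the control level (adjusted p = 0.023, lost without PABPN1-17ala replicate 5 or 6 or without control replicate 4 or 6, up to 0.146). Of 33 genes of both pathways tested these 3 were called, and of 20 antimicrobial peptides none, beside 0.667% risen and 0.283% fallen over all genes.

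Genes of the nucleolus and of ribosome assembly lay mostly above 0. Of 25 tested, 2 rose and 0 fell, beside 0.667% risen and 0.283% fallen over all genes. On both dyes 17 were above 0 and 0 below 0, with a median log2 fold change of 0.12. Over all genes tested 19.6% were above and 30.0% below 0, with a median of -0.01. Nopp140 (CG7421), a chaperone of small nucleolar ribonucleoproteins, rose by 2.47-fold (adjusted p = 0.0018), with values of 0.72, 1.35 and 1.22 (Cy5) and 1.24, 1.78 and 1.42 (Cy3) in PABPN1-17ala thoraxes, against 0.04, -0.54 and -0.08 (Cy5) and -0.16, 0.45 and 0.17 (Cy3) in control thoraxes. The core box C/D protein nop5 (CG10206) rose by 2.09-fold (adjusted p = 0.00079). Among members not called, mod (0.54), Tsr1 (0.53), Polr1A (0.33), Tif-IA (0.31) and bys (0.26) had all 6 PABPN1-17ala arrays above the control arrays of their dye. Of 18 aminoacyl-tRNA synthetases, AspRS (CG3821) rose by 1.31-fold (adjusted p = 0.022, lost without PABPN1-17ala replicate 3 or 5 or without control replicate 4 or 6, up to 0.146), and 12 members were above 0 and 2 below 0 on both dyes. Among those not called, TrpRS (0.22) had all 6 PABPN1-17ala arrays above the control arrays of their dye. IleRS had all 6 below, at a log2 fold change of -0.72 (-0.35 on Cy5 and -1.09 on Cy3), the largest change of the list.

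Other up-regulated genes of RNA and protein synthesis were picked out after their values were seen. They included Noc2 (CG9246, 1.39-fold), which acts in assembly of the large ribosomal subunit, eIF6 (CG17611, 1.58-fold), which matures it, the translation initiation subunit eIF2beta (CG4153, 1.52-fold), and La (CG10922, 2.22-fold), which binds the ends of RNA polymerase III transcripts. The messenger RNA export factors Hel25E (CG7269) and Ref1 (CG1101) rose by 1.60-fold and 1.40-fold, the splicing factor Sf3b3 (CG13900) by 1.80-fold and the heterogeneous nuclear protein Hrb98DE (CG9983) by 1.57-fold. PNUTS (CG4124), a nuclear targeting subunit of protein phosphatase 1, rose by 2.67-fold (adjusted p = 9.15e-05), although a second identifier of the same symbol, CG31657, was at -0.06. The GTPase Ran (CG1404), which powers transport through the nuclear pore, rose by 1.67-fold (adjusted p = 0.027). Ran was the 1 called of 36 genes of nucleocytoplasmic transport and chaperonins, beside 0.667% risen and 0.283% fallen over all genes. Of these 36 genes, 19 were above 0 and 4 below 0 on both dyes. Among the genes of this paragraph, La, Sf3b3 and PNUTS were still called in all 12 analyses that left out 1 array, whereas eIF6 and Ref1 were lost in all but the one without PABPN1-17ala replicate 1 (adjusted p up to 0.258 and 0.227). Noc2 and Ran were each lost without PABPN1-17ala replicate 2 or 3 or without control replicate 1, and further without control replicate 2 for Noc2 and 3 for Ran (up to 0.136 and 0.159). For eIF2beta the arrays were PABPN1-17ala replicates 3, 4 and 5 and control replicates 5 and 6 (up to 0.210), for Hel25E PABPN1-17ala replicates 3 to 6 and control replicates 4 to 6 (up to 0.209), and for Hrb98DE PABPN1-17ala replicates 1 and 2 and control replicates 1 and 3 (up to 0.133).

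The lists for the 3′ end of messenger RNAs held no called gene. Over all genes tested 0.667% rose and 0.283% fell, so lists of this size would often hold none. None of 18 genes of messenger RNA 3′ end processing or of 22 deadenylation genes was called, and smg, which recruits the deadenylase, stood at a log2 fold change of -0.06 (adjusted p = 1). Of 85 cytosolic ribosomal proteins, RpL27 (CG4759) rose by 1.62-fold (adjusted p = 0.023, lost in 7 of 12 analyses that left out 1 array: without PABPN1-17ala replicates 2, 3 or 5 or without control replicates 1, 2, 3 or 5, up to 0.133). The median log2 fold change of that family was 0.01.

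Among genes of muscle and cell structure, salm (CG6464) rose, a zinc-finger transcription factor that specifies the fibrillar fate of flight muscle. Its log2 ratios were 2.02, 1.08 and 2.26 (Cy5) and 1.53, 2.13 and 2.14 (Cy3) in PABPN1-17ala thoraxes, against 0.14, 0.39 and 0.43 (Cy5) and -0.71, -0.20 and -0.04 (Cy3) in control thoraxes. The lowest PABPN1-17ala array was above the highest control one on either dye, and the rise of 3.62-fold had an adjusted p of 0.0079, which went to 0.0501 without PABPN1-17ala replicate 3. None of 37 sarcomere genes and none of 12 flight muscle markers was called, beside 0.667% risen and 0.283% fallen over all genes. Uncalled sarcomere genes lay on both sides, with all 6 arrays above control for Mlc2 (0.70), Act57B (0.57), sls (0.45) and Mlp84B (0.33), and below for fln (-0.88) and TpnC4 (-0.56). Named after their values were seen, the myosin chaperone unc-45 (CG2708) rose by 1.53-fold (adjusted p = 0.0012), Tig (CG11527), a matrix ligand of integrins, by 1.69-fold (adjusted p = 0.026), and the mechanosensitive channel Piezo (CG8486) by 1.62-fold (adjusted p = 0.023), although a second identifier of Piezo, CG18103, was at a log2 fold change of -0.22. Tig was lost without PABPN1-17ala replicate 3, 4 or 5 or without control replicate 1 or 5 (adjusted p up to 0.140), and Piezo without PABPN1-17ala replicate 2 or 3 or without control replicate 1 or 2 (up to 0.134).

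Protein quality control was covered by lists of chaperones, stress responses, the proteasome and autophagy, beside 0.667% risen and 0.283% fallen over all genes. Of 22 heat shock proteins and cochaperones none rose and 1 fell, the small heat shock protein CG4461 to 0.569 of control (adjusted p = 0.027, lost without PABPN1-17ala replicate 2 or 3 or without control replicate 1 or 3, up to 0.142), while Hsc70-4 stood at a log2 fold change of 1.24 (adjusted p = 0.078). Of 27 genes of endoplasmic reticulum stress and the ATF4 response, 1 rose, the translation inhibitor Thor (CG8846), by 2.39-fold (adjusted p = 0.049, lost in 10 of 12 analyses that left out 1 array, all but those without PABPN1-17ala replicate 1 or without control replicate 2, up to 0.250). Among uncalled members, PEK (log2 fold change 0.83, adjusted p = 0.091) and crc (0.67) had all 6 PABPN1-17ala arrays above the control arrays of their dye. The lowest member, Gp93, was at -0.18. None of 38 proteasome subunits was called, and 19 of them were below 0 on both dyes. Of 51 ubiquitin and autophagy genes, the cullin Cul2 (CG1512) rose by 2.26-fold (adjusted p = 0.00013) and the mitochondrial kinase Pink1 (CG4523) fell to 0.515 of control (adjusted p = 0.019, lost without PABPN1-17ala replicate 2, 3 or 5 or without control replicate 3 or 5, up to 0.093).

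**Figure D3:**
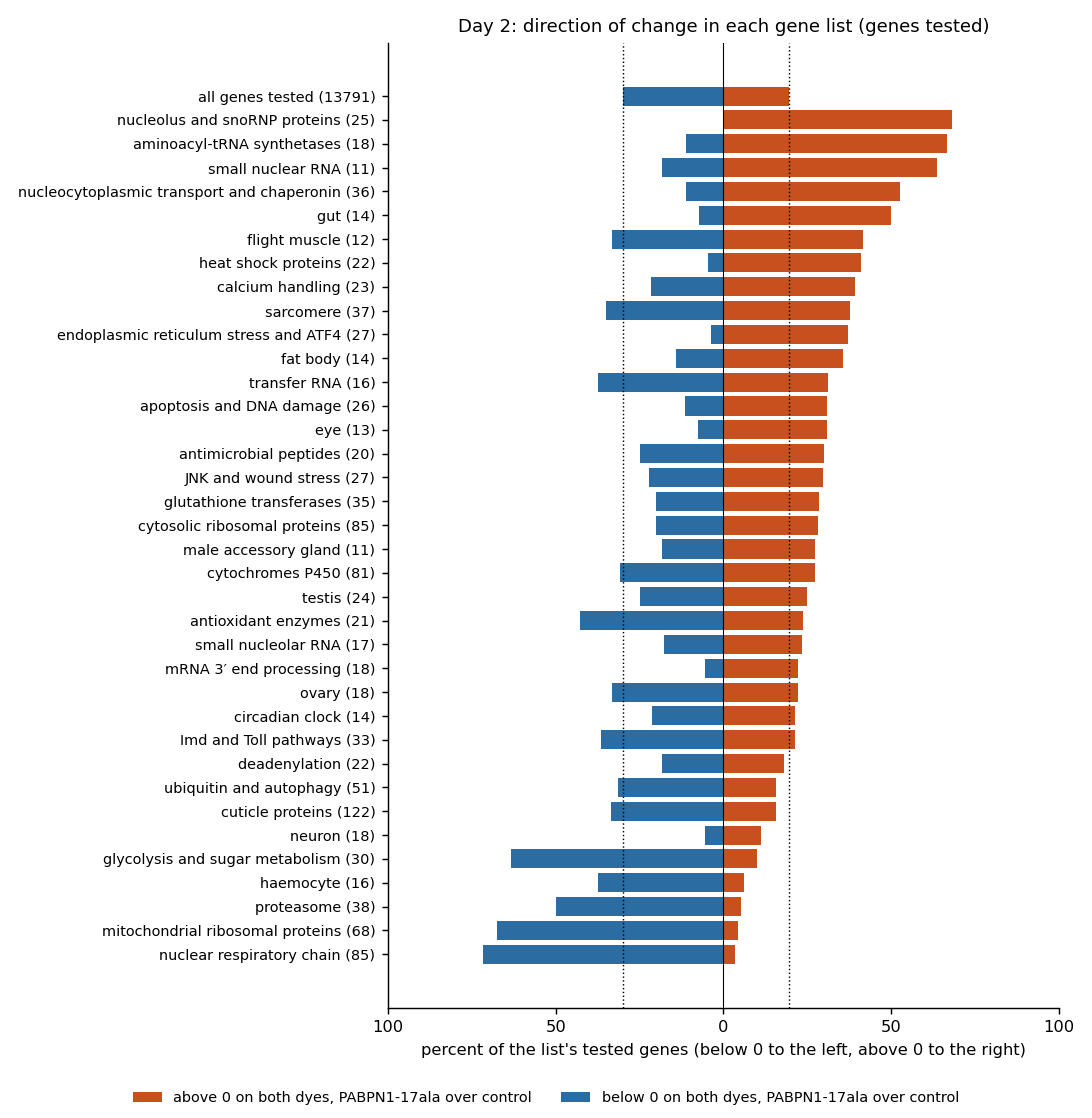
Share of the tested genes of each list whose log2 fold change (PABPN1-17ala over control, day 2) was above 0 on both dyes (orange, to the right) or below 0 on both (blue, to the left). The number of genes tested is in brackets and dotted lines mark the shares over all genes, 19.6% above and 30.0% below; the nucleolus list has 17 of 25 members above and 0 below, and sugar metabolism 19 of 30 below.

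Among the lists examined other than the mitochondrial ones, sugar metabolism held the most down-regulated genes. Of 30 tested, 3 fell and 1 rose, beside 0.283% fallen and 0.667% risen over all genes. On both dyes 19 were below 0 and 3 above 0, and the median log2 fold change was -0.17. UGP (CG4347), which makes UDP-glucose for glycogen, had log2 ratios of -0.97, -0.69 and -0.59 (Cy5) and -0.74, -0.82 and -0.75 (Cy3) in PABPN1-17ala thoraxes, against -0.09, 0.24 and 0.34 (Cy5) and -0.05, -0.01 and 0.41 (Cy3) in control thoraxes. The groups did not overlap, and the level was 0.536 of control (adjusted p = 0.0080). Phosphofructokinase (Pfk, CG4001), the committed step of glycolysis, and phosphoglucomutase (Pgm1, CG5165), which links glycogen with glycolysis, were at 0.548 and 0.560 of control (adjusted p = 0.039 and 0.016). Both calls were less stable, since Pfk was lost in 8 of the 12 analyses that left out 1 array (without any of PABPN1-17ala replicates 2 to 6 or without control replicates 4 to 6, up to 0.210) and Pgm1 in 5 (without PABPN1-17ala replicate 2, 3 or 5 or without control replicate 2 or 6, up to 0.076).

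Opposite to these enzymes, Pepck1 (CG17725), the phosphoenolpyruvate carboxykinase that commits carbon to glucose synthesis, rose by 2.81-fold (adjusted p = 0.0077). Its log2 ratios were 1.61, 1.88 and 1.60 (Cy5) and 2.15, 2.20 and 2.02 (Cy3) in PABPN1-17ala thoraxes, against 0.27, 0.24 and 0.53 (Cy5) and 0.41, 0.65 and 0.44 (Cy3) in control thoraxes. In all, 13 members of the list had all 6 PABPN1-17ala arrays below the control arrays of their dye, among them, uncalled, enolase (Eno, log2 fold change -1.34, adjusted p = 0.55), Pgi (-1.09, adjusted p = 0.12), Pgk (-0.93, adjusted p = 0.72) and the glycogen branching enzyme AGBE (-0.90, adjusted p = 0.059). Eno had the lowest mean change of these 4 and did not pass the test.

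**Figure D4:**
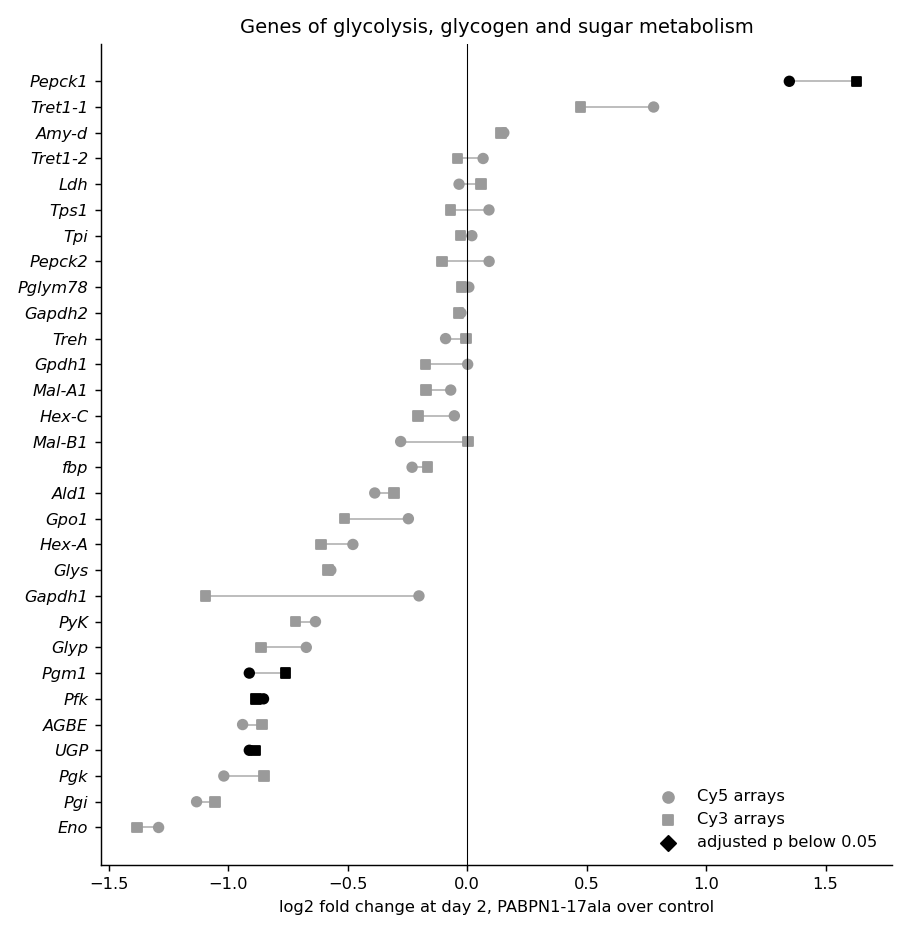
Log2 fold change (PABPN1-17ala over control, day 2) of the 30 genes of glycolysis, glycogen and sugar metabolism, on the Cy5 arrays (circles) and on the Cy3 arrays (squares), joined by a line. Black symbols passed the test: Pepck1 at the top with 1.49 on average, and UGP, Pfk and Pgm1 between -0.90 and -0.84.

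The other down-regulated genes outside the mitochondrial lists had diverse roles. The lowest was CG14757, at 0.336 of control (adjusted p = 0.020, lost in 7 of 12 analyses that left out 1 array: without PABPN1-17ala replicates 2, 3, 5 or 6 or without control replicates 2, 4 or 5, up to 0.118). Gs1l (CG15441) had log2 ratios of -0.46, -0.52 and -0.73 (Cy5) and -0.75, -0.85 and -0.75 (Cy3) in PABPN1-17ala thoraxes, against 0.64, 0.75 and 0.40 (Cy5) and 0.52, 0.10 and 0.41 (Cy3) in control thoraxes, a fall to 0.452 of control (adjusted p = 0.00020). CG8520 was at 0.458 of control (adjusted p = 0.00061). CG42319, measured under the identifier CG17041, was at 0.433 of control (adjusted p = 5.17e-05), although its second identifier, CG17042, was at a log2 fold change of 0.11. The receptor-like protein cue (CG12086) was at 0.419, CG14022 at 0.419 and l(3)72Dr (CG32154) at 0.511 of control (adjusted p = 0.024, 0.042 and 0.0095), and these calls were lost on leaving out single arrays. For cue these were PABPN1-17ala replicates 4, 5 and 6 and control replicates 5 and 6 (up to 0.125), for CG14022 PABPN1-17ala replicates 2 to 6 and control replicates 4 to 6 (up to 0.192), and for l(3)72Dr PABPN1-17ala replicates 2 and 3 (up to 0.059). IscU (CG9836), the scaffold on which iron-sulphur clusters are built, was at 0.519 of control (adjusted p = 0.039, lost on leaving out any array but PABPN1-17ala replicate 1 and control replicate 2, up to 0.181), and the mitochondrial pyruvate carrier Mpc1 (CG14290), named after its value was seen, at 0.575 (adjusted p = 0.021, lost without PABPN1-17ala replicate 2 or 3 or without control replicate 1 or 2, up to 0.109). Sirt4 (CG3187), also named after its value was seen, was at 0.742 of control (adjusted p = 0.012, lost without PABPN1-17ala replicate 3 or without control replicate 1, up to 0.058). IscU, Mpc1 and Sirt4 encode mitochondrial proteins although they were in none of the mitochondrial lists, of which the largest was chosen by the study on these same samples.

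Most genes up-regulated at day 2 were not called at the later ages. Both dyes were above 0 for 77 of the 92 at day 6, and for 42 at day 11. The share of all genes above 0 on both dyes was not taken at those ages, so whether 77 and 42 differ from it was not tested. Of the 92 genes up-regulated at day 2, 25 were also called up-regulated at day 6 (0.935% of all genes were), 11 at day 11 (0.754%) and 6 on both, while 61 were called on neither later day. Their log2 fold changes had a median of 0.99 at day 2, the day on which they were chosen, with 0.35 at day 6 and 0.08 at day 11. The change itself was lower than at day 2, by a contrast of the same limma model, for 9 genes at day 6 and 26 at day 11, with 8 on both, and higher for none. Over all genes tested, 0.0798% at day 6 and 0.210% at day 11 passed that contrast downward, and 0.160% and 0.0798% upward. The day 2 values both chose these genes and enter the contrast, so the counts are a description. CG12105 turned over, since it was raised 4.75-fold at day 2 and then fell at day 6 (log2 fold change -0.84, adjusted p = 0.0052) and day 11 (-0.82, adjusted p = 0.017).

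Genes raised on all 3 days formed a small set. GstD1 had log2 fold changes of 2.17 at day 2, 1.05 at day 6 and 1.37 at day 11. CG15784, raised 2.82-fold at day 2, had 1.77 at day 6 and 1.69 at day 11, eIF6 had 0.66, 1.39 and 1.01, and Chchd2 (CG5010), a small mitochondrial protein, had 0.66, 0.94 and 1.21, all called. PNUTS and eIF2beta completed the 6 genes. By contrast, Gadd45 had 3.44 at day 2, 1.67 at day 6 (adjusted p = 0.0017) and 0.71 at day 11 (adjusted p = 0.50), and Rsod 2.47 at day 2, 2.68 at day 6 and 0.33 at day 11. The pool of day 2 control RNA was the reference on all days, but each day's effect was taken against its own controls.

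**Figure D5:**
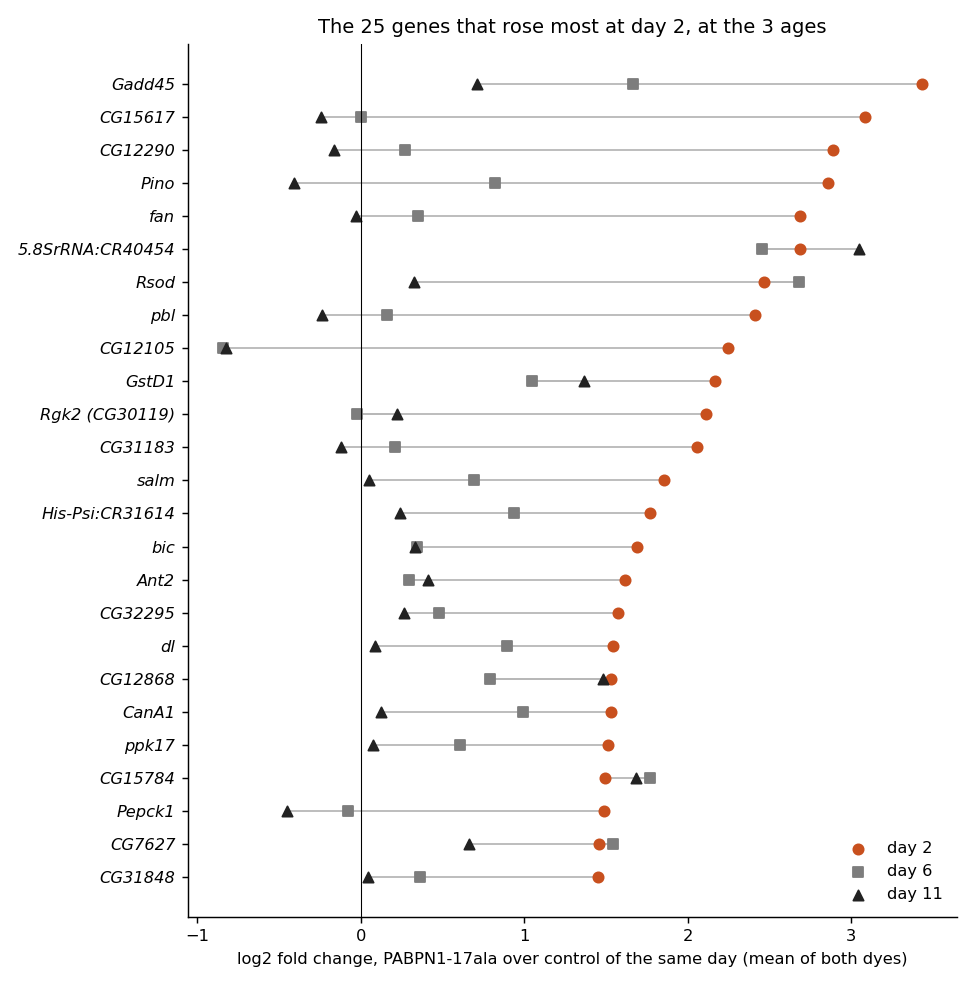
Log2 fold change (PABPN1-17ala over control of the same day, mean of both dyes) at day 2 (orange circles), day 6 (grey squares) and day 11 (black triangles) of the 25 genes with the highest rise at day 2. Gadd45 has 3.44, 1.67 and 0.71, whereas GstD1 and CG15784 stay at 1.05 or more on each day.

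Some genes that fell outside the mitochondrial lists were also called at the later ages. Of the 24 genes, 12 were called down-regulated at day 6 (0.667% of all genes were) and 4 at day 11 (0.428%), and 12 on neither day, with medians of -0.83 at day 2, -0.70 at day 6 and -0.46 at day 11. UGP had log2 fold changes of -0.90 at day 2, -1.47 at day 6 and -1.86 at day 11 (adjusted p = 0.0080, 0.00010 and 4.54e-05).

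Some further up-regulated genes belonged to none of the lists and were named after their values were seen. S6k (CG10539), the kinase that carries TOR signals to the ribosome, rose by 1.65-fold (adjusted p = 0.016, lost without PABPN1-17ala replicate 2 or 3 or without control replicate 1 or 3, up to 0.087). The amino acid transporter JhI-21 (CG12317) rose by 2.06-fold (adjusted p = 0.00024), and Hus1-like (CG2525), a subunit of the checkpoint clamp that loads at damaged DNA, by 2.55-fold (adjusted p = 0.0021). Of 26 apoptosis and DNA damage genes none rose and 1, Diap2, fell, beside 0.667% risen and 0.283% fallen over all genes. In that list the transcription factors Irbp18 and Xrp1 had the highest log2 fold changes, 0.20 and 0.17. The surface protein NijA (CG6449), a Ninjurin, rose by 2.10-fold (adjusted p = 0.0012).

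Markers of other tissues were looked at for a change in what the thorax samples held. None of 18 ovary, 11 male accessory gland, 14 fat body, 16 haemocyte, 18 neuron, 14 gut and 13 eye marker genes was called, and their list medians lay between -0.05 and 0.05. Over all genes 0.667% rose and 0.283% fell, so lists of these sizes would often hold no called gene. Single members lay further from 0. Of the gut genes 7 were above 0 and 1 below 0 on both dyes, beside 19.6% above and 30.0% below over all genes. The digestive proteases Jon99Ciii, betaTry and Jon65Aiii were at 0.79, 0.65 and 0.42, and Jon65Aiv at 0.23 with all 6 PABPN1-17ala arrays above control (adjusted p = 1 each). In the fat body list Tsf1 was at 0.40 with all 6 arrays above control (adjusted p = 0.96) and Lsp2 at -0.53 with all 6 below (adjusted p = 1). The part of gut or fat body RNA in the results was not tested. The eye-colour gene w (CG2759), a common marker carried by transgenes, had a log2 fold change of 0.62 with all 6 PABPN1-17ala arrays above the control arrays of their dye (adjusted p = 0.52). Genes that the study used as unchanged controls had log2 fold changes of -0.17 (RpS6), 0.01 (RpL32), -0.01 (Vha16-1) and -0.05 (alpha-Est1, CG1031), with an adjusted p of 1 each.

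Up-regulated genes were placed on chromosome arms by their symbols in the RefSeq annotation of Drosophila release 6. On arm 2L, 29 of 2402 genes tested rose (1.21%), and on 2R 22 of 2651 (0.830%). Chromosome 2 thus held 56.7% of the 90 placed up-regulated genes, beside 38.4% of the placed genes tested and 43.6% of the down-regulated ones. Neighbours among the genes tested were called together for 3 pairs. Cyp4p2 and Cyp4p1, and Pepck1 and Rgk2 (CG30119, a small GTPase of the Rad and Gem type, 4.33-fold, adjusted p = 0.0061), both on 2R, rose together, and CG17734 and CG5214 on 3R fell together. A second identifier of Rgk2, CG15069, was at a log2 fold change of -0.01. Whether the site of a transgene or the genetic background contributes to this distribution was not tested.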

How the data were processed

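Thorax RNA of adult Drosophila was measured on 2-colour arrays. The deposited values were read as log2 ratios of thorax over the common reference, as normalized by the authors; the log base, the direction and the normalization method are not given in the sources used here, and neither is which Cy5 and Cy3 arrays share an extract. Signal over background was not analysed here, so precision was set by the number of arrays. No column of per-sample values was left aside (0 columns). All 13820 gene identifiers were kept, apart from 29 with fewer than 2 values in a condition and dye, and 23 control spots were set apart. Gene names came from RefSeq: 12047 identifiers matched a locus tag, 1153 a synonym and 620 none.

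For each dye a mean for each of the 6 conditions was fitted with limma 3.58.1 in R 4.3.3. Fold changes of both dyes were averaged and the larger p was kept, or 1 where signs differed, with Benjamini-Hochberg adjustment over 13791 genes and a threshold of 0.05. The authors' methods name a two-way ANOVA of genotype and time. As an alternative, the same 6 condition means were fitted without the limma moderation of variances, with the dyes apart and joined as above. That unmoderated fit was not the authors' own ANOVA. Replicates were counted as separate extracts, and p-values measure only the spread between these arrays, which may be partly technical. On simulated data of 13791 genes with 200 changed, 178 were recovered, with 0 of the wrong sign and 0 unchanged genes called. The noise was drawn independently for each gene, with no shift shared by the genes of an array. The simulation therefore checks the procedure and does not measure how reliable the calls on the real arrays are.

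Genes named are the 25 called genes with the highest rise and the 10 outside the mitochondrial lists with the lowest fold change, each with 6 arrays on one side of control, called members of the gene lists, and w, Pabp2, smg, GstD1, Gadd45 and 4 reference genes; genes named beyond this are marked. The genes, the lists and the tests were chosen with earlier results of these data known.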

Additional observations from a re-analysis of the deposited data

Results flagged for a closer look

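In 2 of the 120 groups of 6 arrays examined, 1 array lay far from the other 5, after the control mean of its dye was taken off; chance marks about 1 group in 20. PABPN1-17ala replicate 1 was the array in both. For CG12290 it stood at 2.21, against 2.862 to 3.144 on the others, and for CG31848 at 0.5, against 1.497 to 1.769. That array is the one whose source label names the control genotype. On it Gadd45 stood at 2.72 and CG15617 at 3.16, against at most 0.12 and 0.41 on the control arrays of day 2. Both genes were also called without that array.

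For the following named genes the effect of PABPN1-17ala differed between ages by a contrast of the limma model with adjusted p below 0.05, given as the log2 effect at the later day minus that at day 2. Most of these genes were named for their change at day 2, whose values also enter the contrast, so the choice itself moves the differences of up-regulated genes below 0 and these are a description. CG15617 differed by -3.08 at day 6 and -3.33 at day 11, CG12290 by -2.62 and -3.05, and Pino by -2.04 and -3.26. The differences at days 6 and 11 were -2.34 and -2.72 for fan, -2.26 and -2.65 for pbl, and -3.09 and -3.07 for CG12105. For Ant2 they were -1.32 and -1.21, and for Mmp1 -1.16 and -1.52. At day 6 alone bic differed, by -1.35. At day 11 alone, Gadd45 differed by -2.72, Rsod by -2.14, His-Psi by -1.53, dl by -1.45 and CanA1 by -1.41. Also at day 11 alone, Cul2 differed by -1.58, pirk by -1.25, nop5 by -1.14 and Cyp4p1 by -1.06. The genes Gs1l and l(3)72Dr, down-regulated at day 2, differed upward at day 11, by 0.94 and 1.63.

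Outside the fly genes, the array carries a spot for the coding sequence of Gal4, the driver present in both genotypes. It stood at 0.45 ± 0.083 on Cy5 and 0.89 ± 0.12 on Cy3 arrays of PABPN1-17ala thoraxes, and at -0.60 ± 0.19 and -0.08 ± 0.29 on those of control thoraxes (SD, n = 3 each), a difference of 1.01. Each dye was tested apart, since the arrays of both dyes came from 3 extracts per genotype. The exact two-sided permutation p was 0.1 on Cy5 and 0.1 on Cy3, the smallest that 3 against 3 arrays can give, so the difference could not pass a threshold of 0.05. The difference was 0.43 at day 6 and 0.01 at day 11. At day 2 the eye-colour gene w, a transgene marker, stood at a log2 fold change of 0.62 (adjusted p = 0.52).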

How the results depend on the processing

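The counts of genes risen at day 2 (92), genes fallen at day 2 (39) and genes fallen at day 2 outside the mitochondrial lists (24) depended on how dyes and conditions were joined. One model of all arrays with dye as a covariate called 316 up, 243 down and 182 outside, and means of assumed pairs 298, 231 and 174. Cy5 arrays alone gave 181, 123 and 85, and Cy3 arrays alone 197, 108 and 81. Using only the 2 day 2 conditions gave 23, 22 and 11, of which 22, 13 and 6 were among the genes called here. The unmoderated fit of each dye gave 54, 19 and 10. Quantile scaling within dye gave 134, 65 and 43, and an adjusted p below 0.01 gave 51, 16 and 7. Leaving out 1 array gave 54 to 121 up (lowest without PABPN1-17ala replicate 3, highest without replicate 1), 17 to 50 down and 9 to 33 outside; without PABPN1-17ala replicate 2 there were 61, 23 and 12. Of the 92 up-regulated genes 47 were called in every such analysis, and of the 39 down-regulated 13. No called value of a named gene changed sign. Called genes had all 6 arrays on one side of control, so leaving out 1 array or using 1 dye could not turn their sign. List medians carried no call. Of the values of named genes under the alternatives, 1295 kept their direction and call, 187 lost the call, 3 gained it and 11 moved; of the list medians 826 stayed within the spread and 48 moved. The replicate numbers were not shown to pair the arrays of the genotypes (correlations of deviations -0.06 to 0.21, positive for 4 of 6 numbers), and with the replicate block 90, 41 and 25 genes were called, 88, 36 and 22 of them shared. The cause of these differences was not tested. With 3 arrays per condition and dye, small changes can be missed.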
